A study of Mus musculus with 13 samples.

Results

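The regions described here are the H3K27me3 peaks that were called in mouse embryonic fibroblasts expressing H3.3K27M and that had no counterpart in fibroblasts expressing H3.1K27M. They were chosen from the deposited peak lists by position alone: an H3.3K27M peak belonged to the set when it shared 0 bp with every H3.1K27M peak. Of 1192 H3.3K27M peaks, 354 met this rule (29.7%), and 838 overlapped an H3.1K27M peak. These are called H3.3K27M-only peaks below, and the other 838 are called shared. The reverse set, H3.1K27M peaks without an H3.3K27M peak, held 198 of 1053 peaks.

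Both groups were fibroblasts grown in serum and transduced with lentivirus for stable expression of a histone H3 in which lysine 27 is changed to methionine, carried by H3.1 in one group and by H3.3 in the other. No label gives the level of either mutant histone, says whether each line came from 1 clone, or names a gene deletion. The labels describe 13 samples, with 2 H3K27me3 replicates for each of the groups compared here. Each group was represented by 1 peak list, so there was no spread between replicates. The rule used the positions in both lists. Counts, widths and distances are therefore given as descriptions without a test, and they concern these lists and not the conditions.

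H3K27me3 is trimethylated lysine 27 of histone H3, a mark placed by Polycomb repressive complex 2 (PRC2) through its catalytic subunit EZH2. The complex binds its own product through the subunit EED, which stimulates the enzyme and lets the mark spread from CpG-rich nucleation sites into broad domains. In fibroblasts such domains cover silent developmental genes of other lineages. The K27M histone inhibits PRC2 and lowers H3K27me3 in most of the genome, and the mark persists at a subset of CpG-rich sites. H3.1 is deposited mainly during DNA replication, whereas H3.3 goes into chromatin at all stages of the cell cycle.

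The peaks could not be intersected with genes, because the gene and promoter tables used here describe GRCm38.p6 and the peaks are on mm9. Locus names below therefore come from general knowledge of the mouse map and carry no measured overlap with a gene. They were given to 16 peaks, 13 of them among the 21 widest, after these peaks were seen. All 18 genes named were on the same chromosome as the peak in the GRCm38.p6 table. Where 2 named loci followed each other on a chromosome, their order was the same as the order of the peaks in 5 of 5 pairs. Because the names were chosen from known positions, this agreement was likely beforehand. It does not show that a gene lies at its peak.

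Promoter sequences of 4 genes named at the widest peaks, Hoxb8, En1, Foxd1 and Msx3, are shown because Polycomb domains of mammals nucleate over CpG-rich DNA. Each is the stretch of 250 bases before the start of the RefSeq transcript (GRCm38.p6), read 5′ to 3′ on the strand of the gene, with CG in capitals. En1, Foxd1 and Hoxb8 lie on the plus strand and Msx3 on the minus strand.
Hoxb8: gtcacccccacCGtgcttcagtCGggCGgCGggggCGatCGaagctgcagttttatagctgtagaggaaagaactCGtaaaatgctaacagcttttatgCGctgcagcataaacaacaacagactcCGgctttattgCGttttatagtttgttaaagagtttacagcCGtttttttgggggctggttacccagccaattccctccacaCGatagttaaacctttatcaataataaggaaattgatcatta
En1: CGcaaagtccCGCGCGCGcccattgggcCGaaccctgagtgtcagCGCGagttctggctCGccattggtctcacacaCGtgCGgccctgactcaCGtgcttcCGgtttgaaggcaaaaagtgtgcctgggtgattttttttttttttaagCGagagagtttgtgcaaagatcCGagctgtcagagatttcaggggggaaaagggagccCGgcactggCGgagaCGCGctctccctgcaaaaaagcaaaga
Foxd1: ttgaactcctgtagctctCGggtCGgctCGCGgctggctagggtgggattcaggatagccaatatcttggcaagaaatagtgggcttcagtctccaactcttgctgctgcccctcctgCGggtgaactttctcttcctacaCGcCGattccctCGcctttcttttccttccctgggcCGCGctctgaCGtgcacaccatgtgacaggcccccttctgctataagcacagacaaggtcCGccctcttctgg
Msx3: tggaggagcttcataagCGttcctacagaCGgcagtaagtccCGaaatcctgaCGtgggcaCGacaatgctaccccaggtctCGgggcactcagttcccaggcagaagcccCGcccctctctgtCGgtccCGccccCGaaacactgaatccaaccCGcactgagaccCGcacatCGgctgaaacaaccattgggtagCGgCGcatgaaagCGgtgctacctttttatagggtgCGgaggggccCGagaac

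The En1 promoter held 19 CG and the Msx3 promoter 18, against a median of 6 in the 32851 promoters of the table. As many CG as in En1 occurred in 19.7% of promoters, and as many as in Msx3 in 21.7%. Hoxb8 and Foxd1 held 12 CG each, a number reached by 33.5% of promoters. The motif searched was CG, which reads the same on both strands, and 92.1% of promoters of this length held at least 1. CG content was not uniformly high at the named loci: over 18 promoter entries of 12 named genes, the number ran from 2, at an entry of Nr2f1, to 25, at an entry of Pax2, with 13 entries above the median of all promoters. Entries of the same gene differed as well, with 2 and 22 CG for Nr2f1 and 5, 20 and 25 for Pax2. These counts describe promoters and not the sequence under the peaks, which was not analysed here.

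The widest H3.3K27M-only peak spanned 38.6 kb on chromosome 11, from 96106601 to 96145199 (mm9), in the part of the chromosome known to hold the HoxB cluster around Hoxb8 and Hoxb9. Hox genes encode homeodomain factors that set position along the body axis. A shared H3.3K27M peak of 53.6 kb lay 30.2 kb to its left, where the H3.1K27M list had a peak of 46.2 kb. On the other side the next H3.1K27M peak was 731.2 kb away. Thus both lists marked the left-hand domain of this region, and only the H3.3K27M list marked the second.

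Some other wide peaks lay farther from any peak of the other list. A peak of 36.6 kb on chromosome 1, from 122487201 to 122523799, lay at the locus of En1, the engrailed homeodomain factor of midbrain, hindbrain and limb patterning. It was 244 kb from the nearest H3.1K27M peak on the left and 5.28 Mb from the next on the right.

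On chromosome 6 a peak of 22.6 kb, from 6804601 to 6827199, lay at the paired genes Dlx5 and Dlx6, homeodomain factors of the jaw and limb skeleton. Another H3.3K27M-only peak of 4.8 kb followed after 1.4 kb. The nearest H3.1K27M peak to the wider of these was 2.07 Mb away. On chromosome 13 a peak of 20 kb, from 99120001 to 99139999, lay at Foxd1, a forkhead factor of kidney stroma, 1.53 Mb from an H3.1K27M peak. A second peak on that chromosome, 18.2 kb wide from 78308801 to 78326999, lay at Nr2f1, an orphan nuclear receptor of neural development, 4.63 Mb from an H3.1K27M peak.

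Msx3, a homeodomain factor of the dorsal neural tube, was the locus of a 19.8 kb peak on chromosome 7, from 147230601 to 147250399. Flanking H3.3K27M-only peaks of 3 kb lay on both sides of it, 14.8 kb away on the right and 98.8 kb on the left, and the nearest H3.1K27M peak was 7.44 Mb away. Gata3, a zinc finger factor of T cells and kidney, was the locus of a 17.8 kb peak on chromosome 2, from 9803001 to 9820799, 470.4 kb from an H3.1K27M peak. Pax9, a paired-box factor of tooth and pharyngeal pouches, was the locus of a 16.6 kb peak on chromosome 12, from 57782001 to 57798599. Here a shared peak was 62 kb away, and the H3.1K27M peak in it was 64 kb away.

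**Figure D1:**
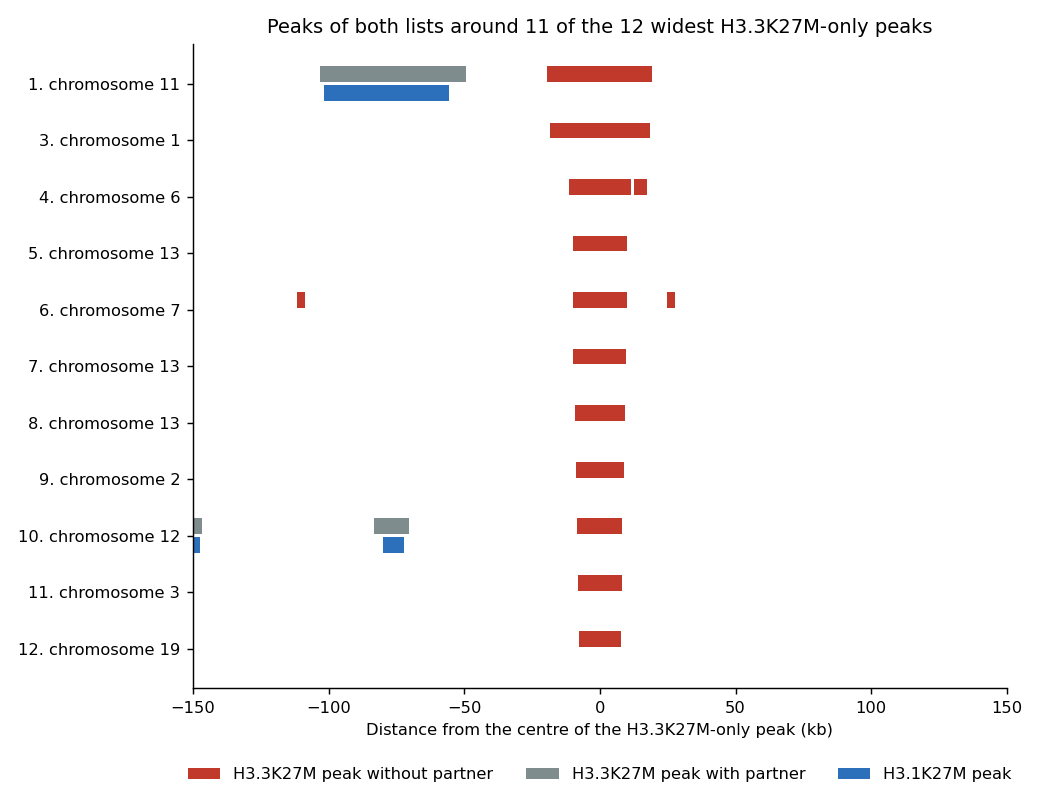
Peaks of both lists within 150 kb of the centre of each of 11 of the 12 widest H3.3K27M-only peaks, in order of width. The x axis is the distance from the centre in kb, with H3.3K27M peaks in the upper lane of each row and H3.1K27M peaks in the lower lane, and peaks reaching past the window are drawn to its edge. In 9 of the 11 rows no H3.1K27M peak appears. The rows numbered 1 (chromosome 11) and 10 (chromosome 12) have shared peaks on the left.

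Among the remaining widest peaks, 12.2 to 19.6 kb wide, 5 lay at loci named here. A peak of 13 kb on chromosome 6, from 49765401 to 49778399, lay at Npy, which encodes neuropeptide Y, 578.6 kb from an H3.1K27M peak. One of 12.8 kb on chromosome 8, from 94880401 to 94893199, lay at Irx5, an Iroquois homeodomain factor, 90.6 kb from an H3.1K27M peak but 301.2 kb from a shared one. One of 12.6 kb on chromosome 10, from 102486401 to 102498999, lay at Alx1, a homeodomain factor of the facial skeleton, with no H3.1K27M peak for 8.08 Mb on the left and 16.4 Mb on the right. The last of these loci, both with peaks of 12.2 kb, were Lef1, a nuclear effector of Wnt signalling, on chromosome 3 from 130806401 to 130818599, and Fgf3, a fibroblast growth factor gene, on chromosome 7 from 152019801 to 152031999.

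No locus name was given to 7 others of the 21. The widest of them had 19.6 kb and spanned chr13:22087401-22106999, 3.04 Mb from an H3.1K27M peak. Peaks of 16.2 kb at chr3:93243001-93259199 and 14.6 kb at chr10:60141801-60156399 were likewise 3.6 and 1.28 Mb away. Peaks of 15.6 kb at chr19:53744201-53759799, 13 kb at chr2:93019201-93032199 and 12.4 kb at chr18:80902201-80914599 had gaps of 359.4, 762.2 and 259.8 kb. The seventh, 12.2 kb at chr7:86708801-86720999, was the closest of the 21 to the other list, 5.4 kb from an H3.1K27M peak and 2.4 kb from a shared H3.3K27M peak of 67.4 kb.

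In all, 13 of the 21 widest peaks lay 500 kb or more from the nearest H3.1K27M peak, and 2 lay within 50 kb of one. Over all 354 H3.3K27M-only peaks, 183 (51.7%) lay 500 kb or more away and 48 (13.6%) within 50 kb. The difference between the 21 and the whole set was not tested. The 21 were spread over 12 chromosomes. Running names of the peaks follow position and skip some numbers. Of the 21, 2 faced a place where the H3.1K27M list skips a number: the Gata3 peak and the 16.2 kb peak of chromosome 3. Over all H3.3K27M-only peaks, 11 faced such a place. Only stretches between 2 H3.1K27M peaks were checked, so the 38 peaks in stretches at chromosome ends were left out of this count. The sources used here do not say what became of the skipped numbers, and their part in the result was not tested.

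Most H3.3K27M-only peaks were of moderate width. Their median was 5 kb (quartiles 3.6 and 7.2 kb), against 8.4 kb (5.6 and 13.7 kb) for shared H3.3K27M peaks and 3.2 kb (2.2 and 4.8 kb) for H3.1K27M peaks without a partner. The H3.1K27M list was narrower as a whole, with a median of 5.6 kb against 7.2 kb for all H3.3K27M peaks. H3.1K27M peaks with a partner had a median of 6.2 kb, so in both lists the peaks without a partner were the narrower ones. The H3.3K27M-only peaks covered 2.12 Mb, 17.9% of the length of the H3.3K27M list, and the 10 widest held 11.7% of the 2.12 Mb. The narrowest were 2 peaks of 1 kb, on chromosome 10 from 45054201 and on chromosome 8 from 14306601.

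The proportion of H3.3K27M peaks without a partner was lower in each wider class. Below 2 kb it was 66.7% (20 of the H3.3K27M-only set and 10 shared), from 2 to 4 kb 52.3% (101 and 92) and from 4 to 8 kb 36.1% (170 and 301). From 8 to 12 kb it was 18.3% (42 and 188), and from 12 kb upwards 7.84% (21 and 247). A wider peak has more bases that can meet a peak of the other list, so this gradient is not independent of the overlap rule.

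**Figure D2:**
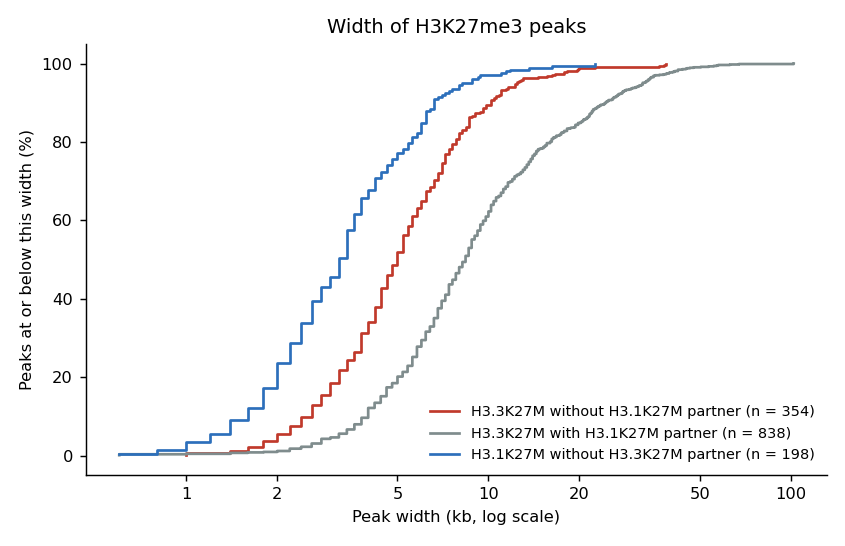
Cumulative share of peaks (y axis, percent) by peak width (x axis, kb, log scale) for the 354 H3.3K27M-only peaks, the 838 shared H3.3K27M peaks and the 198 H3.1K27M peaks without a partner. The H3.3K27M-only curve, with its median at 5 kb, lies between the other two, whose medians are 8.4 and 3.2 kb. The whole H3.1K27M list is narrower than the H3.3K27M list, with medians of 5.6 and 7.2 kb.

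Of the H3.3K27M-only peaks, 183 (51.7%) lay 500 kb or more from the nearest H3.1K27M peak. Whether this is more or less than the spacing of the lists alone would give was not tested. The median distance to the nearest H3.1K27M peak was 531.3 kb (quartiles 152.7 and 1673.5 kb). Of the 354, 4 lay within 5 kb of an H3.1K27M peak, 44 from 5 to 50 kb, 123 from 50 to 500 kb, 145 from 500 kb to 5 Mb and 38 farther away. Median width was 3.4 kb over the 4 nearest peaks, and 5.2, 5, 5 and 5.1 kb in the classes that follow.

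Counting peaks of either list, 148 H3.3K27M-only peaks (41.8%) had no other peak within 500 kb. This share was not computed for shared peaks, so it does not say whether the set is more isolated than they are. H3.1K27M peaks without a partner lay closer to the other list, at a median of 212.4 kb. Of these 198, 46 (23.2%) lay within 50 kb of an H3.3K27M peak, compared with 48 H3.3K27M-only peaks (13.6%) within 50 kb of an H3.1K27M peak. At 500 kb or more the numbers were 66 (33.3%) and 183 (51.7%). The lists differ in size, and the list with fewer peaks leaves more space between them, so these distances do not compare like with like.

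**Figure D3:**
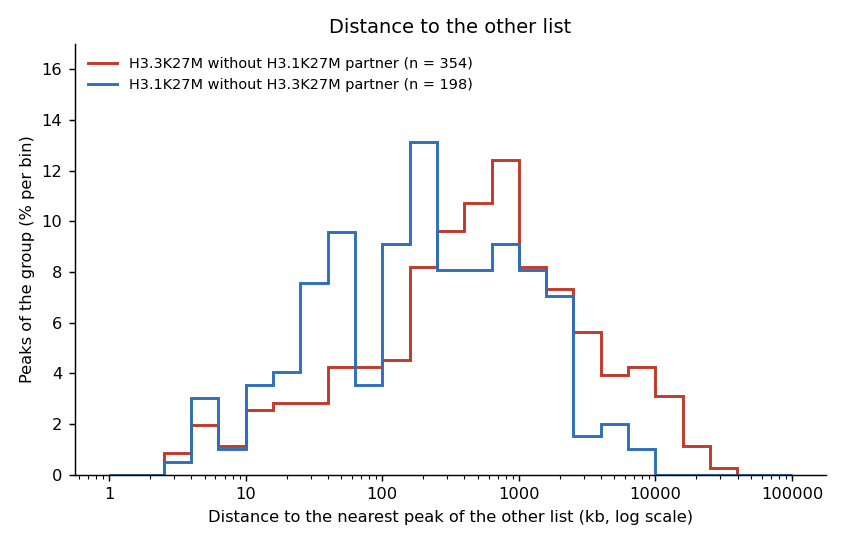
Distance to the nearest peak of the other list (x axis, kb, log scale) as the percent of each group per bin (y axis), for 354 H3.3K27M-only peaks and 198 H3.1K27M peaks without a partner. The H3.3K27M-only outline is shifted to the right, with a median of 531.3 kb against 212.4 kb.

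The overlap rule had few borderline cases among the H3.3K27M-only peaks. Just outside the rule, the 5 nearest to an H3.1K27M peak had gaps of 3.8, 3.8, 3.8, 4.6 and 5.2 kb. In this order they were the peaks at chr17:25608401-25611199, chr19:44855201-44866799, chr5:73396401-73400199, chr16:91288401-91291399 and chr7:52418601-52424599, with widths of 2.8, 11.6, 3.8, 3 and 6 kb. The chromosome 19 peak lay at the locus of Pax2, a paired-box factor of kidney and eye. A shared H3.3K27M peak of 16.2 kb followed it after 3.4 kb, and the H3.1K27M peaks that overlapped this shared peak totalled 49.4 kb.

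Just inside the rule, the smallest overlap was 599 bp, in 3 peaks of that very width whose edges coincided in the lists. The next smallest overlaps were 999 bp in 2 peaks. By share of length, a criterion added after the values were seen, the least covered shared peak was 25.8 kb wide on chromosome 10, from 45185801 to 45211599, and 17.1% of it lay in an H3.1K27M peak of 4.4 kb. No shared H3.3K27M peak was covered by less than 10%, 11 were covered by less than 25% and 107 by less than 50%.

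A minority of H3.3K27M-only peaks sat beside a shared domain. Within 50 kb of a shared H3.3K27M peak there were 44 of them (12.4%), beside 42 different shared peaks. How often shared peaks lie this close to one another was not computed, so this share has nothing to be set against. Those 42 had a median H3.3K27M width of 13.5 kb, and 10 of them (23.8%) were 20 kb or wider, a width reached by 15.2% of all shared H3.3K27M peaks. The difference between 23.8% and 15.2% was not tested. Beside 11 of the 44, the H3.1K27M peaks that overlapped the shared H3.3K27M peak were wider in total than that peak. Their total width includes bases outside it, and H3.3K27M-only peaks beside the same shared peak count separately. One such place lay on chromosome 11, where H3.3K27M-only peaks of 9.6 and 5.8 kb flanked a shared H3.3K27M peak from 77742001 to 77767799 (25.8 kb) that faced 30.6 kb in the H3.1K27M list. The H3.3K27M-only peaks with a shared peak within 50 kb had a median width of 5.1 kb, and the rest 5 kb.

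In the order of peaks along the chromosomes, 116 H3.3K27M-only peaks had shared peaks as both neighbours. A further 112 had a shared peak on one side and another H3.3K27M-only peak on the other, and 46 had H3.3K27M-only peaks on both sides. An H3.1K27M peak without a partner and a shared peak were the neighbours of 44. Another H3.3K27M-only peak lay within 50 kb of 29 (8.19%), and the median distance to the nearest one was 1516.6 kb. No such share is given for shared peaks, so these values do not say whether the set is crowded or sparse. With neighbours at most 100 kb apart, 320 stood alone, 12 groups held 2 peaks, 2 groups held 3 and 1 group held 4.

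The group of 4 lay on chromosome 7 between 152010801 and 152087999, with widths of 6.4, 12.2, 10.8 and 7.6 kb. It is the part of chromosome 7 known to hold Fgf3, Fgf4 and Fgf15, which encode growth factors of the embryo. In the GRCm38.p6 table no protein-coding gene starts between Fgf3 and Fgf4 or between Fgf4 and Fgf15. The groups of 3 lay on chromosome 7 around the Msx3 peak, from 147128801 to 147268199 (25.8 kb in all), and on chromosome 2 from 28822601 to 28897999 (13.2 kb in all).

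Both chromosome 7 groups belonged to the set of 19 peaks past the last H3.1K27M peak of that chromosome. These peaks were 3 to 19.8 kb wide. This stretch of 12.7 Mb without an H3.1K27M peak held the most H3.3K27M-only peaks of the 241 such stretches that contained any. By the overlap rule, every H3.3K27M peak wholly inside such a stretch is H3.3K27M-only. The number is therefore a count of all H3.3K27M peaks lying there, and whether it is unusual was not tested. In the other stretches the number was 4 at most: 174 held 1 peak, 43 held 2 and 23 held 3 or 4.

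The 6 stretches with 4 peaks lay on chromosomes X (28.3 Mb long), 7 (20 Mb), 13 (10.2 Mb), 11 (5.5 Mb), 2 (2.7 Mb) and 10 (2.19 Mb). The one on chromosome 13 contained the Nr2f1 peak. The longest, 55.5 Mb on chromosome 16, contained 3 narrow peaks of 9.2 kb in all and faced 2 skipped numbers of the H3.1K27M list. The first 31.6 Mb of chromosome 12 contained 3 peaks, one of which, from 5379601 to 5383199 (3.6 kb), was the farthest from an H3.1K27M peak of all 354, at 26.2 Mb. Stretches at the ends of chromosomes contained 38 peaks in all, the 19 of chromosome 7 included.

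**Figure D4:**
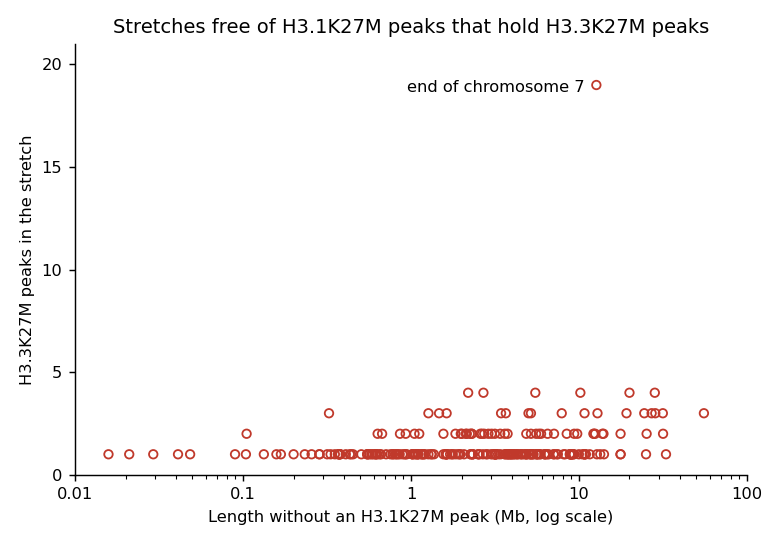
Each circle is 1 of the 241 stretches between neighbouring H3.1K27M peaks, or between the last one and a chromosome end, that contain H3.3K27M-only peaks. The x axis is the length of the stretch (Mb, log scale) and the y axis the number of H3.3K27M-only peaks. The end of chromosome 7 holds 19, and all other stretches hold 4 or fewer. Every H3.3K27M peak wholly inside a stretch is H3.3K27M-only by the overlap rule.

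The share of H3.3K27M peaks without a partner varied between chromosomes, with a median of 29.4% over 20 chromosomes. It was highest on chromosome 10 (46.7%, 21 of 45 peaks), X (46.4%, 13 of 28), 7 (43.8%, 35 of 80) and 16 (40.9%, 9 of 22). It was lowest on chromosomes 15 (19.6%, 10 of 51), 4 (19.8%, 17 of 86) and 8 (21.7%, 13 of 60). On chromosome 7, 19 of the 35 peaks lay past its last H3.1K27M peak. The share in the opposite direction, H3.1K27M peaks without a partner, was 18.8% in all. It was lowest, at 7.14%, on chromosomes 10 (2 of 28) and 19 (3 of 42), and highest on chromosomes 16 (31.6%, 6 of 19) and 8 (28.1%, 18 of 64). Chromosome 16 was thus among the highest in both directions.

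By length, H3.3K27M-only peaks made up 37% of the H3.3K27M coverage of chromosome 7 (239.8 kb), 29.9% on X (80.4 kb) and 28.7% on chromosome 3 (108.4 kb). On chromosome 15 they made up 9.62% (45 kb). Of the 239.8 kb on chromosome 7, 147 kb lay past its last H3.1K27M peak. Per Mb of chromosome there were 0.134 H3.3K27M-only peaks over the genome, with 0.238 on chromosome 11, 0.229 on chromosome 7 and 0.228 on chromosome 19. In the share of H3.3K27M peaks without a partner, chromosomes 11 (28.2%) and 19 (25.9%) were below the median of 29.4%. The lowest density was on chromosome 3, at 0.0752, which had 12 peaks. On chromosome 14, also with 12 peaks, none was wider than 6.8 kb.

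**Figure D5:**
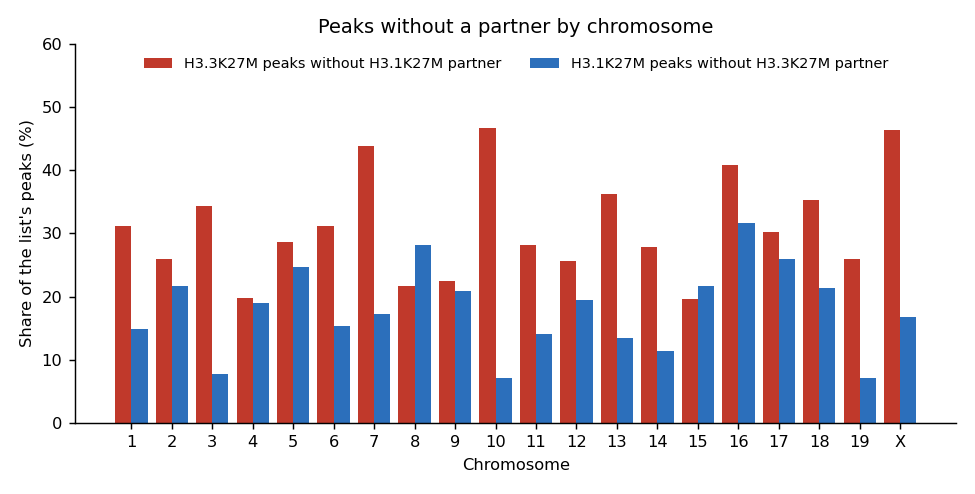
Share of the peaks of each list that had no partner in the other list (y axis, percent) by chromosome (x axis), for H3.3K27M and H3.1K27M peaks. The H3.3K27M bars run from 19.6% on chromosome 15 to 46.7% on chromosome 10, and on chromosomes 8 and 15 the H3.1K27M bar is the taller one.

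The lists give no height, fold enrichment, p-value or read depth. An absent H3.1K27M peak therefore says that none was listed there, and the amount of H3K27me3 at these places in H3.1K27M cells was not measured by these files.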

How the data were processed

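H3K27me3 was profiled by chromatin immunoprecipitation and sequencing after micrococcal nuclease digestion, per the labels' protocols. Per the submitters' processing notes, the authors used Bowtie 1.0.0, deepTools and build mm9. The sources used here do not name the peak caller, its threshold, the pooling of replicates or the depth. Each deposited list has the position, width and running name of its peaks, with every start in the file on a 200 bp grid and every end 1 bp short of it. Positions were read as BED and are printed with the first base as 1, and widths and gaps were computed in bases.

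Members, lists and named regions were chosen with earlier results of these data known. Regions named were the 20 widest (21 with ties), the 5 nearest to and farthest from an H3.1K27M peak, the 5 least overlapped shared peaks and groups of at least 4. Of the widest, 1 is counted but not reported singly here. The end of chromosome 7, the narrowest peaks, the least covered shared peaks, the width and distance summaries by stretch and by chromosome, and all locus names were added after values were seen. Mouse mm9 lengths came from GenomeInfoDb 1.38.1. Python 3.11.15, numpy 2.4.6, pandas 2.3.3, scipy 1.17.1 and matplotlib 3.10.9 were used. The interval functions were tested on simulated data. Planned start site, gene list and CpG analyses of the peaks were not run for want of mm9 sequence and annotation.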

Additional observations from a re-analysis of the deposited data

How the results depend on the processing

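Leaving out the 19 peaks at the end of chromosome 7 gave 335 H3.3K27M-only peaks with a median of 4.8 kb and 16.7% of the covered length. Leaving out the 11 found to face a skipped number, with chromosome ends not checked, gave 343, 5 kb and 17.3%. Both settings were chosen after seeing the data. Requiring a gap of 5 or 50 kb to the other list left 350 and 306 peaks. Under a reciprocal overlap of 50%, which by construction also takes in partly overlapped peaks, there were 496 peaks, the median width was 5.6 kb and the share of covered length 30.9%. Restricting the set to peaks no narrower than the list's median left 90. With 20 kb in place of 50 kb, 5.37% had another H3.3K27M-only peak near. The count of 90, the median of 5.6 kb and the shares of 30.9% and 5.37% moved beyond the range set for them. The 17 others did not. They include the count of 496, although it was well above the 354 of the main rule. Start site, gene and CpG alternatives were not run for want of mm9 annotation and sequence. No paired analysis was possible because there is 1 list per group, and no replicate could be left out. The unknown depth limits every statement that a peak is absent.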
